A study of Mus musculus with 2 samples.

Results

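Cytoplasmic ribosomal protein genes encode the protein subunits of the ribosomes that translate nuclear mRNAs. The members were the mouse genes whose symbols begin with Rpl or Rps and a number, plus Rplp0, Rplp1, Rplp2 and Rpsa, without kinase genes named after Rps6, pseudogene symbols and symbols under 500 unique molecular identifiers (UMIs) over both libraries. Of 55357 genes listed, 94 symbols matched and 86 passed the minimum: 34 of the small subunit, 50 of the large subunit and 2 that are not proteins of the ribosome, Rpl7l1 and Rps19bp1. The 8 symbols below the minimum were Rpl10l, Rps12l1, Rps23rg1, Rpl32l, Rps3a2, Rps3a3, Rpl3l and Rpl39l, which held 413 UMIs in one library and 538 in the other.

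The study collected cells from subcutaneous tumours that grew from MC38, a mouse colon adenocarcinoma line, in C57BL/6 mice labelled UEIS LSL or UEIS KI. The study's title calls UEIS a micropeptide and places it upstream of interferon, as a brake on cGAS-STING activity. The cells are labelled as tumour-infiltrating immune cells, and CD45 stands in the library names. Each genotype is 1 library of the 10x Genomics 3' v3 assay, so no difference between genotypes has a replicate check, and the intervals given are 95% intervals for counting error alone. The labels do not spell out LSL and KI, the allele's promoter, or how many mice were pooled.

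The UEIS LSL library held 9527 barcodes with 92764697 UMIs, and the UEIS KI library held 9734 barcodes with 99404988 UMIs. After filtering, 8646 and 8685 cells remained, with median depths of 7892 and 8642 UMIs. The libraries shared 34 barcodes, of which 13 fell in the same gate. Cells were placed in classes by how many genes of each marker list had a UMI, and the limits of these gates were set after the data had been seen.

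Ribosomal protein mRNAs are among the most abundant transcripts of a cell. Many of them start with a run of pyrimidines at the 5' end, the terminal oligopyrimidine (TOP) element, through which mTORC1 signalling controls their translation and stability together. Their share of a cell's mRNA is usually high in lymphocytes and growing cells and low in neutrophils.

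The annotated start regions of 7 members that recur in the results are shown so that the pyrimidine runs can be seen. Each sequence gives 30 bases centred on the RefSeq start (GRCm38.p6, 5' to 3' on the gene's strand), with its longest run of C and T in capitals. A marked run can lie before the start, as in Rplp0, or after it, as in Rpsa, so it need not be a TOP element. Rplp0 and Rpsa had the lowest relative level in Lyve1 and Folr2 positive macrophages, Rps27, Rps28 and Rpl38 were lower in the UEIS KI library, and Rpl14 and Rps2 were higher in UEIS KI myeloid classes.
Rplp0, chr5:115559452-115559481, plus strand: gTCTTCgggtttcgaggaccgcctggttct
Rpsa, chr9:120127751-120127780, plus strand: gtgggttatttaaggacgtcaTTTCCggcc
Rps27, chr3:90213634-90213663, minus strand: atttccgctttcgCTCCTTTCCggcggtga
Rps28, chr17:33824548-33824577, minus strand: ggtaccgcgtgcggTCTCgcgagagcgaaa
Rpl38, chr11:114668565-114668594, plus strand: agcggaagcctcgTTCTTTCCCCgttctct
Rpl14, chr9:120571502-120571531, plus strand: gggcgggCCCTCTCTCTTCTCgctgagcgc
Rps2, chr17:24720048-24720077, plus strand: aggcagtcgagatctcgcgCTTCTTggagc
The longest runs were 14 bases in Rpl14, 10 in Rpl38, 9 in Rps27, 6 in Rps2, 5 in Rplp0 and Rpsa and 4 in Rps28. Promoter entries matched 64 of the 86 members. These members had 75 entries in all. A run of at least 7 pyrimidines lay in these 30 bases in 34 of the 75 entries, 45.3%, and in 18.6% of all 32851 promoter entries. In the 300 bases from 250 before to 50 after the start, on both strands, CCGGAA was found in 36 of the 75 entries and 14.9% of all entries. CTTTCC was found in 38 of the 75 and 26.6% of all entries, AAGATGGC in 8 and 2.75%, and TATAAA in 7 and 13.6%. These are matches of letters, and CTTTCC can lie inside a pyrimidine run.

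Member genes held 15.6% of all UMIs in the UEIS LSL library and 14.9% in the UEIS KI library. Among the most abundant was Rps24, a small subunit protein, with 413184 and 410615 UMIs in the UEIS LSL and UEIS KI libraries. Rps4x, Rpl41 and Rpl39 also ranked near the top. The least abundant members were Rpl6l with 710 and 840 UMIs, then Rps4l, Rps27rt, Rps19bp1 and Rpl37rt. Of these, Rpl6l, Rps4l, Rps27rt and Rpl37rt are near copies of other members. GENCODE lists Rpl6l, Rps4l and Rpl37rt as processed pseudogenes, which the rule on symbols did not remove. How reads shared between copies were assigned is not given in the sources used here.

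The ribosomal protein share differed between classes and, within some classes, between genotypes. Macrophage-gated cells, 4683 in UEIS LSL and 5007 in UEIS KI, gave 14.9% (14.886 to 14.906) and 14.0% (13.969 to 13.987) of their summed UMIs to members. The highest shares among classes of at least 100 cells in each library were those of collagen-positive cells, 18.7% and 18.8%. Their 8 markers form a fibroblast list of collagen genes, Dcn, Lum, Pdgfra and Sparc. Ptprc, which encodes CD45, had a UMI in only 12.4% and 7.07% of these cells. The cells thus go against the label of immune cells and are called by their leading genes.

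T cells, 167 and 139, gave 17.0% and 17.5% of their UMIs to members. Conventional type 2 dendritic cells (cDC2), 209 and 112, gave 16.4% and 16.0%. C1q-low myeloid cells, 1432 and 1424, which had macrophage markers but little C1q complement RNA, gave 15.9% and 17.2%. These 3 classes and the collagen-positive cells lay above macrophages in both libraries. Summed macrophage markers came to 4620 and 2128.5 UMIs per 1000000 (CPM) in the T-cell gate and 1874 and 2054 CPM in the cDC2 gate. In macrophages these markers came to 18055 and 18710 CPM. Their part in the T-cell and cDC2 shares was not tested.

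Monocytes, 458 and 694, gave 13.5% and 14.8% and lay below macrophages in UEIS LSL only. Immunoglobulin RNA was high in this gate in the UEIS KI library, with Igkc at 2012 CPM against 0.34 CPM in UEIS LSL. A single UEIS KI cell carried most of it: without that cell, Igkc was at 32.2 CPM and the share stayed at 14.8%. Igkc was also higher in UEIS KI in the other classes compared, at 23.2 against 0.63 CPM in macrophages.

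Classes under 100 cells in a library are given by value only. Mature dendritic cells, 85 and 55, gave 15.2% and 12.8%. B cells, 32 and 48, gave 18.2% and 18.3%, and natural killer (NK) cells, 24 and 22, gave 19.5% and 24.6%. Summed macrophage markers came to 4856 and 3188 CPM in the B-cell gate and 2327 and 791 CPM in the NK-cell gate. Neutrophils, 31 and 102, gave 10.5% and 10.9% of summed UMIs, while their median cell gave 4.31% and 3.69%.

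**Figure D1:**
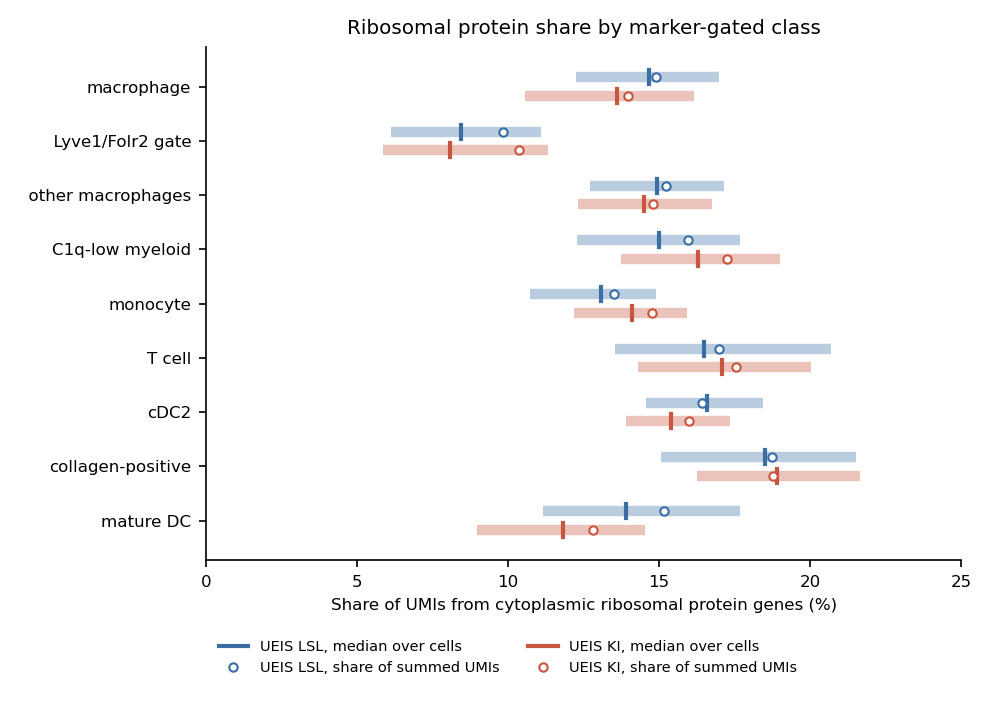
Share of UMIs from cytoplasmic ribosomal protein genes (x axis, percent) in the 7 marker-gated classes of at least 50 cells in each library (y axis) and in 2 subsets of macrophages, with bars for the quartiles over cells, ticks for the median cell and open circles for the share of summed UMIs. The Lyve1/Folr2 gate, with median cells at 8.43% in UEIS LSL and 8.08% in UEIS KI, stands to the left of the other rows plotted, and collagen-positive cells stand to the right.

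The lowest shares among macrophages were in cells gated on Lyve1, Folr2, Fcna, Cd209f and Timd4, markers of tissue-resident macrophages, of which at least 3 had a UMI. This comparison was added after the values had been seen. The gate held 320 macrophages in UEIS LSL, 6.83% of macrophages, and 1105 in UEIS KI, 22.1%. Their share of member UMIs was 9.85% in UEIS LSL and 10.4% in UEIS KI, against 15.2% and 14.8% in the other macrophages. The difference was -0.63 in UEIS LSL and -0.51 in UEIS KI on the log2 scale.

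The share followed the number of these 5 markers seen in a cell. In UEIS LSL the median share was 15.5% in 2469 macrophages with none of them, 14.5% with 1, 13.02% with 2, 9.43% with 3 and 6.76% in the 81 cells with 4. In UEIS KI it was 15.5%, 14.8%, 13.2%, 9.46% and 6.41% for 0 to 4 markers, and 5.94% in the 31 cells with all 5. The median fell at each step in both libraries. Median depth first rose and then fell: it was 8331, 9975, 10762.5, 7697 and 7400 UMIs for 0 to 4 markers in UEIS LSL. In UEIS KI it was 8688, 10194.5, 12120, 8308.5, 6185.5 and 5658 UMIs for 0 to 5 markers, so from 2 markers on depth fell with the share.

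Shallow macrophages also had low shares, so gated and other cells were set side by side within bins of depth. At 6000 to 8000 UMIs the median cell had 7.70% in the gate and 15.4% outside it in UEIS LSL, and 7.08% and 15.2% in UEIS KI. The gap narrowed at both ends of the depth range. At 500 to 2000 UMIs the medians were 4.90% and 7.05% in UEIS LSL and 4.97% and 5.97% in UEIS KI, and from 16000 UMIs they were 11.9% and 15.0%, and 12.3% and 14.4%. The gated median was the lower one in all 7 bins of both libraries.

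The mitochondrial share of UMIs moved with the result. Its median was 1.33% in the gate and 0.829% in other macrophages of UEIS LSL, and 1.13% and 0.802% in UEIS KI. Among cells under 1% mitochondrial UMIs the median ribosomal protein share was 10.6% in the gate and 15.2% outside it in UEIS LSL, and 10.6% and 14.8% in UEIS KI. Between 2% and 10% mitochondrial UMIs, shares were low in both sets, at 5.70% and 8.11% in UEIS LSL and 5.43% and 6.63% in UEIS KI. Summed macrophage markers were at 26013 and 24872 CPM against 17537 and 17293 CPM in other macrophages. Monocyte markers were at 433 and 345 CPM in the gate and 1020 and 969 CPM outside it. For cDC2 markers these values were 310 and 163 CPM against 343 and 64.2 CPM, for neutrophil markers 34.9 and 90.2 against 55.7 and 77.1 CPM, and for collagen-positive markers 68.8 and 42.0 against 47.0 and 22.7 CPM. The sets of the other 11 classes were each at or under 30.0 CPM in the gate, and 0 of 8 NK-cell markers had a UMI there in UEIS LSL. The part of depth, mitochondrial share and these markers in the result was not tested beyond the bins given.

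**Figure D2:**
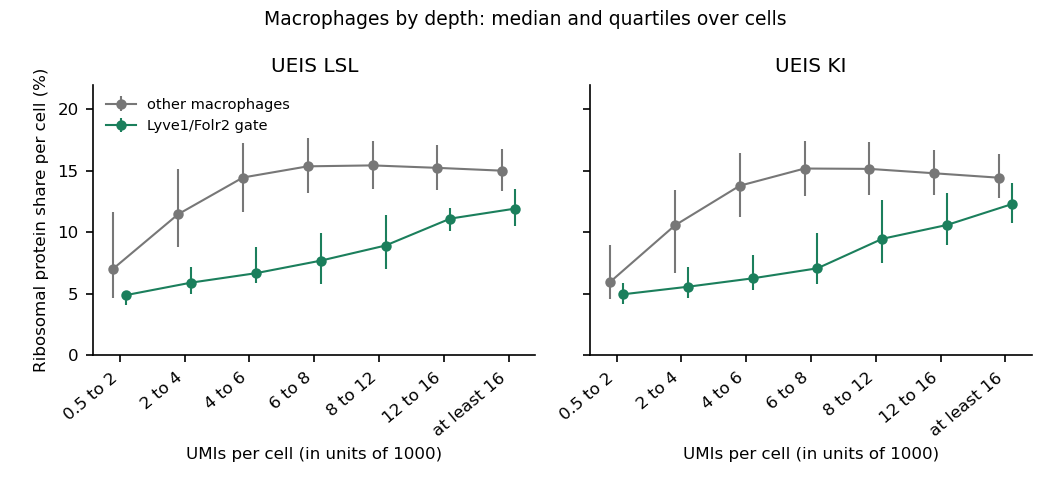
Median ribosomal protein share per macrophage (y axis, percent; lines span the quartiles over cells) in 7 bins of UMIs per cell (x axis, in units of 1000), for the Lyve1/Folr2 gate and the other macrophages of each library. The gated cells lie below the others in every bin, by the most between 4000 and 8000 UMIs.

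Most members were lower in the Lyve1/Folr2 gate, to unequal degrees. A member was called where its CPM differed at least 1.5-fold from other macrophages, the same way in both libraries, with each counting interval on that side. Of 86 measured members, 22 were lower and 0 higher, against 4.22% lower and 7.86% higher of all 11508 genes measured. The median log2 ratio of members was -0.61 in UEIS LSL and -0.50 in UEIS KI, against 0.0028 and 0.013 over all genes. The count was 4 with called doublets kept, 56 with cells thinned to 1000 UMIs and 61 with at least 4 of the 5 markers required. The shares of all genes under these settings are not given, and 4.22% and 7.86% belong to the main setting only.

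The medians of the subunits were close. Small subunit members had median log2 ratios of -0.61 and -0.51, with 9 of 34 called, and large subunit members -0.61 and -0.50, with 13 of 50 called. The lowest member was Rplp0, the protein at the base of the ribosomal stalk, with 1413 CPM in the gate and 3050 CPM outside it in UEIS LSL, and 1426 and 2775 CPM in UEIS KI. Its log2 ratios were -1.11 (-1.16 to -1.06) and -0.96 (-0.99 to -0.94).

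Rpsa, a small subunit protein also known as a laminin receptor precursor, stood at 1879 and 3696.5 CPM in UEIS LSL and at 2119 and 3635.5 CPM in UEIS KI. Its log2 ratios were -0.98 and -0.78. Rps4x, the X-linked form of a small subunit protein, was at -0.88 and -0.73. Rpl13, Rps7, Rpl18 and Rpl3 followed, from -0.90 to -0.66 over both libraries.

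At the other end, Rps29, a small zinc-binding protein of the small subunit, was at 2153 CPM in the gate and 2129 CPM outside it in UEIS LSL, and at 1907 and 1822 CPM in UEIS KI. Its log2 ratios of 0.016 and 0.066 were above those of all other ribosomal proteins among the members. Rplp1, an acidic stalk protein that binds Rplp0 together with Rplp2, had log2 ratios of -0.15 and -0.14. Rplp2 itself was at -0.52 and -0.44, and Rpl12, which sits at the stalk base, at -0.69 and -0.54. Both were nearer the members' medians than Rplp0 and Rplp1, so base and arm were not set apart as groups. Rpl7l1 and Rps19bp1, which are not ribosomal proteins, lay between -0.042 and 0.016.

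Genes outside the symbol rule were measured for the same contrast. Fau, which also encodes a ribosomal protein, had log2 ratios of -0.58 and -0.51, and Rack1, a scaffold on the small subunit, -0.57 and -0.51. Elongation factors were also low: Eef1a1, which brings aminoacyl-tRNA to the ribosome, was at 3444 and 5457 CPM in UEIS LSL and at 3669 and 5484 CPM in UEIS KI, and Eef2, which moves the ribosome along the mRNA, had log2 ratios of -0.81 and -0.73. Tpt1, an abundant TOP mRNA that encodes no ribosomal protein, was at -0.12 and -0.11.

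The lists that follow had medians nearer to 0 than the members in both libraries. Elongation and termination factors were at -0.52 and -0.36, other TOP mRNAs and nascent chain factors at -0.49 and -0.43, ribosome biogenesis genes at -0.38 and -0.22, initiation factors at -0.27 and -0.13, mitochondrial ribosomal proteins at -0.21 and -0.13 and respiratory chain subunits at -0.055 and -0.030. Called lower were 1 of 11 elongation genes and 1 of 14 other TOP and nascent chain genes, both times Eef2. Both lists hold Eef1a1 and Eef2. Also called lower were 2 of 40 initiation genes (Eif3f and Eif3i) and 2 of 52 biogenesis genes (Nob1 and Rrp1b). For mitochondrial ribosomal and respiratory chain genes the counts were 0 of 77 and 0 of 79. Over all 11508 genes 4.22% were lower, so the initiation and biogenesis counts were near the background. Called higher were 1 elongation gene, Eef2k, and 1 respiratory chain gene, Ndufa4, against 7.86% of all genes.

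**Figure D3:**
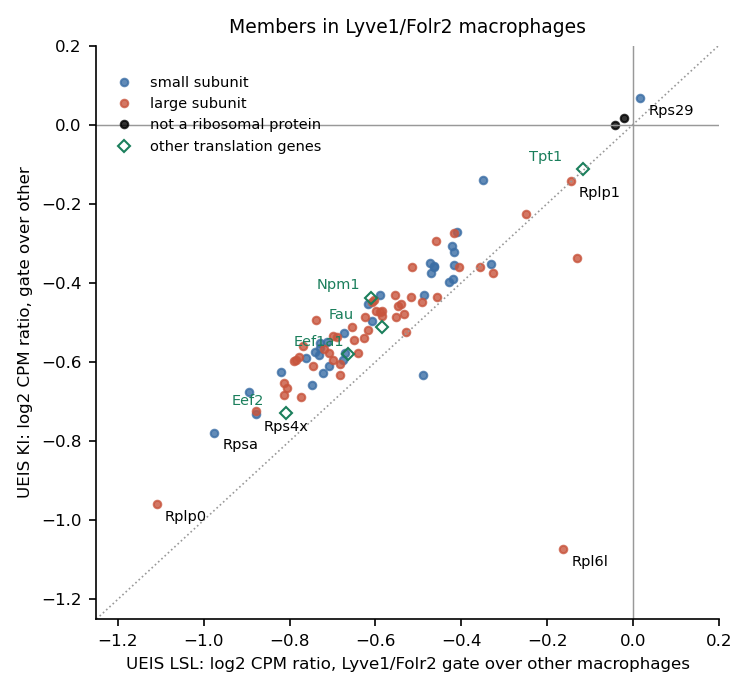
Log2 CPM ratio of each member between the Lyve1/Folr2 gate and other macrophages in UEIS LSL (x axis) and UEIS KI (y axis), coloured by subunit, with 5 other translation genes as diamonds and a dotted line of equal ratios. Members run from Rplp0 at the lower left to Rps29 above 0; Rpl6l, off the line, rests on 18 and 40 UMIs in the gate.

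The share in macrophages as a class was lower in UEIS KI, 14.0% against 14.9%, a log2 ratio of -0.092 (-0.093 to -0.090) or 0.938-fold. The Lyve1/Folr2 gate, with its low share, held more of the UEIS KI macrophages. With the 6 macrophage subsets given the same mix in both libraries, the log2 ratio was -0.018, and without the gate it was -0.040.

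Within the subsets the ratios took both signs. The Lyve1/Folr2 gate gave 0.074, from 9.85% to 10.4%, and the Cxcl9 gate, with 112 and 15 cells, gave 0.097. Dividing macrophages gave -0.046, those with MHC class II genes -0.051 and those with Spp1 and Arg1 -0.018. Macrophages outside these gates gave 14.657% and 14.666%, a log2 ratio of 0.0009 whose interval spans 0.

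C1q-low myeloid cells and monocytes moved the other way. C1q-low cells rose from 15.9% to 17.2%, a log2 ratio of 0.11 (0.109 to 0.115), and monocytes from 13.5% to 14.8%, a ratio of 0.13 (0.123 to 0.134). In both classes depth and division moved with the share. Median depth was 6495 and 8863 UMIs in C1q-low cells and 4726 and 6855.5 in monocytes, and dividing cells were 8.10% and 18.2%, and 2.40% and 10.1%. With the same mix of depth bins the log2 ratios were 0.053 and 0.079. Without dividing cells the C1q-low ratio was 0.092.

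Among the other classes, T cells gave 0.046 (0.034 to 0.057), cDC2 -0.039 (-0.048 to -0.031) and collagen-positive cells 0.0031, with an interval from -0.0009 to 0.0071. These classes rest on 112 to 362 cells per library.

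Few members changed between genotypes. A gene was called where the log2 ratio of its CPM was at least 0.32 in size with its counting interval on that side of 0, and at least 50 UMIs over both libraries were required. In macrophages 0 of 86 members were called higher, against 12.4% of 12867 genes, and 4 were called lower, against 8.09%. The members' median log2 ratio was -0.072 and that of all genes 0.035, and 69 members lay below 0. The member counts were thus under the background in both directions, with a median slightly below that of all genes.

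The 4 members called lower in macrophages were Rps27, Rps28, Rpl38 and Rps27rt. Rps27, a zinc-finger protein of the small subunit, fell from 983 to 764 CPM, and its log2 ratio was -0.36 (-0.38 to -0.34). Rps28, a small subunit protein near the mRNA exit, was at 1742 and 1382 CPM, and Rpl38, a large subunit protein known for its part in translating Hox mRNAs, at 1623 and 1292 CPM. Their log2 ratios were both -0.33. Rps27rt, a near copy of Rps27 from which its reads may not be told apart, was at 37.6 and 30.0 CPM.

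Rpl35 and Rpl39, both large subunit proteins that line or border the exit tunnel, came next. Rpl35 was at 680 and 545 CPM and Rpl39 at 3927 and 3262 CPM, with log2 ratios of -0.32 and -0.27, under the limit for a call. The highest member was Rpl22l1, the paralogue of Rpl22, at 478 and 530 CPM and a log2 ratio of 0.15. Rpl5, which joins Rpl11 and 5S rRNA in the particle that binds Mdm2, was at 562 and 605 CPM, Rpl14 at 1333 and 1427 and Rps2, at the mRNA entry site, at 3217 and 3406.

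C1q-low myeloid cells had 7 members called higher and 0 lower, against 15.5% and 9.62% of 10848 genes. Among the 7 were Rpl14, Rpl4, Rpl5, Rps2 and the sparse pseudogene copies Rpl6l and Rps4l. Rpl14 was at 1464 and 1949 CPM, a log2 ratio of 0.41, and Rpl4, a protein of the exit tunnel wall, at 603 and 788 CPM, a ratio of 0.39. The members' median was 0.13 and that of all genes 0.070. The share of members called higher was below the background share, and with the same mix of depth bins 2 members were called.

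Monocytes had 9 members called higher and 2 lower, against 13.5% and 8.11% of 8616 genes. Among the higher were Rpl10a, Rpl14, Rpl3, Rpl4, Rpl5, Rplp1, Rps18 and Rps2, and lower were Rps27 and Rps27rt. Rpl4 was at 422 and 614 CPM, a log2 ratio of 0.54, Rpl3, at the peptidyl transferase centre, at 1166 and 1575 CPM, and Rps2 at 2614 and 3502 CPM. Rps27 was at 1098 and 856 CPM. With the same mix of depth bins 3 members were called higher and 0 lower.

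T cells had 0 of 84 measured members called in either direction, against 9.04% higher and 7.24% lower of 4515 genes. In cDC2, 0 of 84 were higher and 3 lower (Rpl35, Rps6 and Rps27rt), against 5.49% and 4.58%. In collagen-positive cells 2 of 86 were higher (Rpl14 and Rps27l) and 5 lower (Rpl15, Rpl35, Rpl38, Rps21 and Rps25), against 11.8% and 11.1%. Rpl38 was lowest there, at 2653 and 1684 CPM and a log2 ratio of -0.66.

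Members with short coding sequences had lower ratios of UEIS KI to UEIS LSL than longer members, by their medians, in each class compared. Coding lengths were available for 81 members, of which 10 had at most 300 nucleotides, among them Rpl41, Rpl39, Rps28, Rpl38 and Rps27. The split by length was not among the planned comparisons. Its short group holds all 4 members called lower in macrophages. In macrophages their median log2 ratio was -0.25, against -0.068 for the 71 longer members. It was -0.11 and 0.13 in C1q-low cells, -0.12 and 0.16 in monocytes, -0.092 and 0.051 in T cells, -0.23 and -0.018 in cDC2 and -0.22 and -0.011 in collagen-positive cells. All 10 lay below the members' median in 4 classes, and 9 of 10 in cDC2 and collagen-positive cells. Not all were below 0: Rpl41 and Rpl37a had log2 ratios of 0.046 and 0.036 in C1q-low cells and 0.10 and 0.020 in monocytes, and Rps21 had 0.0053 in C1q-low cells, where 0 of the 10 were called. In monocytes Rps27 and Rps27rt were called lower.

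Across members, Pearson's r between log2 coding length and the log2 ratio ran from 0.27 in T cells to 0.63 in monocytes over 81 members, and was 0.44 in macrophages. The points share the same libraries, and genes are not independent replicates. Other genes showed no such gap in macrophages, where 204 genes of at most 300 nucleotides had a median of 0.033 and 9762 longer genes 0.041. By their medians, short other genes were above longer ones in C1q-low cells, monocytes and cDC2. They were below them in T cells (-0.0062 and 0.027) and collagen-positive cells (0.0047 and 0.028). The order of the members' medians was the same in all 6 classes. Each genotype is 1 library, so genotype and library cannot be told apart here. Rpl22l1, at the top in macrophages, was at 0.30 in C1q-low cells and 0.25 in monocytes, but at -0.033 in collagen-positive cells.

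**Figure D4:**
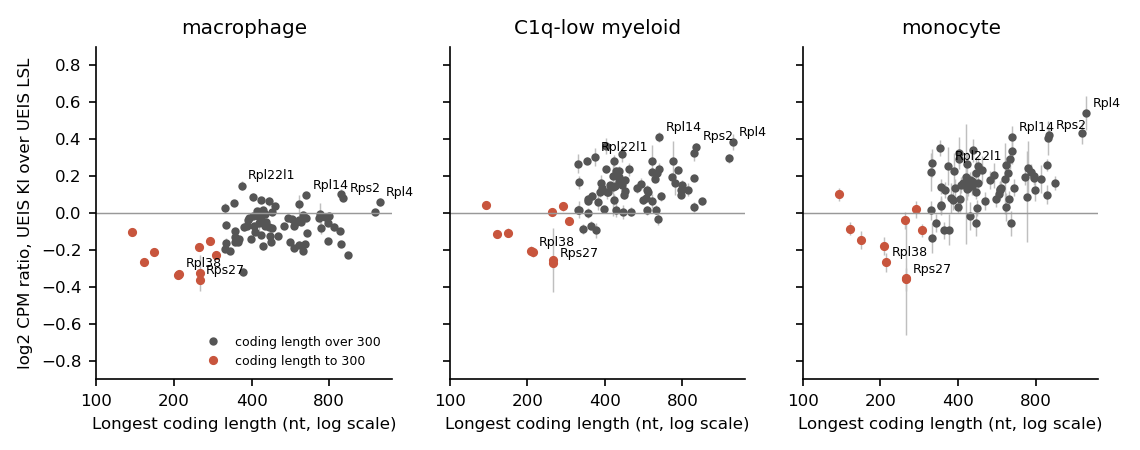
Log2 CPM ratio of each member, UEIS KI over UEIS LSL (y axis, with 95% counting intervals), against its longest coding length in nucleotides (x axis, log scale) in 3 myeloid classes. Members of at most 300 nucleotides sit at medians of -0.25, -0.11 and -0.12 from left to right, below the longer members.

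Mitochondrial ribosomal protein and respiratory chain genes were called higher in larger shares than all genes in the C1q-low and monocyte gates, where 15.5% and 13.5% of all genes were higher. In C1q-low cells 34 of 77 measured mitochondrial ribosomal protein genes, 29 of 79 respiratory chain genes and 18 of 52 ribosome biogenesis genes were higher in UEIS KI, with medians of 0.30, 0.27 and 0.24. Lower were 0, 3 and 0. The 3 lower respiratory genes were Cox4i2, Cox6a2 and Ndufa4l2, isoforms known from hypoxic or specialised cells. With the same mix of depth bins, the genes higher over all 7 lists fell from 86 to 10.

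In monocytes 22 of 77 mitochondrial ribosomal genes, 16 of 77 respiratory chain genes and 6 of 51 biogenesis genes were higher, with medians of 0.23, 0.22 and 0.20. The share of biogenesis genes was below the 13.5% of all genes. Lower in monocytes were 0, 1 and 0, against 8.11%. In macrophages 0 of 77, 2 of 79 and 0 of 52 were higher, against 12.4% of all genes. Lower there were 0, 1 and 2, against 8.09%. Initiation factors gave 4 of 40 higher in C1q-low cells, 3 in monocytes and 0 in macrophages, each under the share of all genes. Lower were 1, 2 and 1 of them, also under the shares of all genes. Elongation factors gave 0 higher and 0 lower in C1q-low cells, monocytes and macrophages.

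The most abundant genes of each list in macrophages were near their UEIS LSL level, with exceptions. Eef1a1 was at 5334 and 5145 CPM, Eef2 at 1490 and 1426 CPM and Npm1, a nucleolar chaperone, at 662 and 649 CPM. Eif1 was at 998 and 913 CPM and Cox4i1 at 1108 and 1247 CPM. Vim, an intermediate filament gene counted among TOP mRNAs, was at 2895 and 4178 CPM, a log2 ratio of 0.53. Fau, a fusion of a ubiquitin-like protein with a ribosomal protein, was at 4684.5 and 4067 CPM. The list of 3 ribosomal proteins outside the symbol rule, which holds Fau and Rack1, had a median log2 ratio of -0.20 in macrophages. Its median was -0.16 in C1q-low cells and -0.26 in monocytes, where the members' medians were 0.13 and 0.14. Called were 1 of 3 lower in macrophages, against 8.09% of all genes, and 1 of 3 higher in monocytes (Rack1), against 13.5%.

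The composition of the ribosomal protein pool was nearly the same across classes. Each member's share of member UMIs was compared with its share in macrophages, and a member was called uneven where it differed at least 1.5-fold the same way in both libraries. No member was called in C1q-low cells, monocytes, T cells or cDC2, where 86, 85, 80 and 82 were measured. In total 6 members were called, 4 in collagen-positive cells and 3 in mature dendritic cells, with Rps27l in both. Rps18 was not called with called doublets kept, where Rpl7l1 was, and Rpl4 was not called at a minimum of 200 UMIs. Rpl22l1 was called in addition with stricter gates. For scale, of all genes measured against macrophages in CPM, 2.98% were at least 1.5-fold higher and 4.08% lower in C1q-low cells, 4.64% and 3.14% in monocytes, 12.9% and 6.2% in T cells and 11.3% and 7.17% in cDC2. Counted in CPM like this, 0 of the members measured were higher or lower in C1q-low cells, monocytes and cDC2, 1 was higher in T cells, 1 higher and 4 lower in mature dendritic cells, and 14 higher and 0 lower in collagen-positive cells. For all genes, the shares were 30% of 962 genes higher and 14.8% lower in mature dendritic cells, and 34.7% and 10.6% of 7522 genes in collagen-positive cells.

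Rps27l, the paralogue of Rps27 and a known p53 target, varied most. It held 101 and 97.1 of every 10000 member UMIs in mature dendritic cells, in UEIS LSL and UEIS KI, against 27.3 and 29.7 in macrophages. The log2 ratios were 1.89 and 1.71, from 815 and 429 UMIs. In CPM it stood at 1535 and 1243 in mature dendritic cells and 407 and 415.5 in macrophages.

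Its other levels were ordered alike in both libraries only in part. C1q-low cells had 26.9 and 29.9 per 10000 and monocytes 26.9 and 28.7, close to macrophages. cDC2 had 24.0 and 22.7, T cells 19.3 and 15.3 and collagen-positive cells 15.3 and 19.2, so the last pair changed places between libraries. NK cells had the lowest values, 8.35 and 11.8, in 24 and 22 cells. The standard deviation of its log2 share over classes was 0.85 in the library where it was smaller, against 0.38 for Rpl36al, the next member.

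In collagen-positive cells 4 members were lower: Rpl29, Rpl36al, Rps29 and Rps27l. Rpl36al, the paralogue of Rpl36a, held 21.4 and 18.4 per 10000 against 36.9 and 35.2 in macrophages, log2 ratios of -0.78 and -0.94. Rpl29, a heparin-binding protein of the large subunit, held 79.0 and 89.5 against 131 and 140, and Rps29 held 91.9 and 78.2 against 143 and 131.

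In mature dendritic cells Rpl4 held 24.8 and 27.6 per 10000 against 39.1 and 43.5 in macrophages, and Rps18, a small subunit head protein, held 58.0 and 60.4 against 89.2 and 91.9. Rpl12, which sits at the stalk base, ran from 45.3 in mature dendritic cells to 86.6 in collagen-positive cells of UEIS LSL and from 45.7 to 98.4 in UEIS KI.

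**Figure D5:**
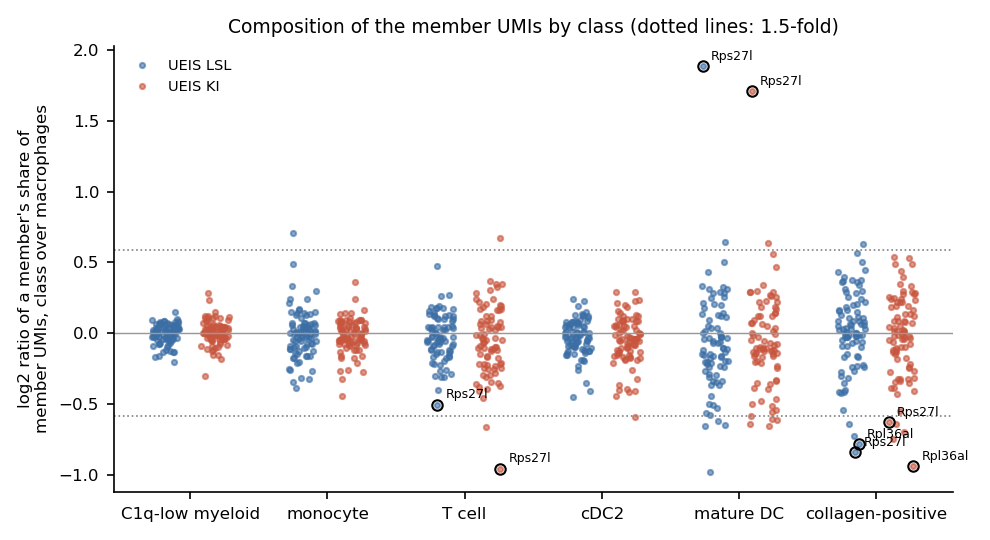
Log2 ratio of each member's share of member UMIs between a class and macrophages (y axis) for 6 classes (x axis) in both libraries; each point is a member and dotted lines mark 1.5-fold. Rps27l in mature dendritic cells, at 1.89 and 1.71, is far above every other point, and Rpl36al is low in collagen-positive cells.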

How the data were processed

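Cells of 1 UEIS LSL and 1 UEIS KI tumour library were analysed from the deposited whole-number UMI counts per gene and barcode. Per the file headers the counts were written by Cell Ranger 8.0.1, while the submitters' processing notes name Cell Ranger 2.1.1 and the build mm10. How multi-mapped reads were handled is not given in the sources used here. Depth was 92764697 and 99404988 UMIs. The members, gene lists and classes were chosen with earlier results of these data known.

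The filter required 500 UMIs and 200 genes per barcode and removed barcodes over 10% mitochondrial UMIs. Doublets were called with Scrublet in scanpy 1.11.5, at a rate of 0.8% per 1000 barcodes, and 726 and 758 were removed. A class needed a UMI in at least 3 of its markers (4 for neutrophils, cDC2, mature dendritic and collagen-positive cells), and another class that came within 2 markers made a cell ambiguous. Monocytes needed 5 of 10 markers and at most 2500 CPM of C1q RNA, macrophages 6 of 12 with more than 2500 CPM, and C1q-low myeloid cells the same 6 of 12 with at most 2500 CPM. Cells of other classes with more than 2500 CPM were set apart. Macrophages were divided, in this order, by the Lyve1/Folr2, dividing, Cxcl9, Spp1/Arg1 and MHC class II markers.

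Counts were summed per class and library. Shares have exact Clopper-Pearson intervals and ratios exact conditional binomial intervals, computed in SciPy 1.17.1, with no p-value since each group is 1 library. The calling was tested on simulated data. Named members are paralogues and members that are not ribosomal proteins, the 5 most and 5 least abundant, the 5 highest and 5 lowest in UEIS KI against UEIS LSL in macrophages, the 5 with the largest spread over classes and every called member, and the 3 most abundant genes of each other list. The contrast of the Lyve1/Folr2 gate and the members it names were added after seeing the data. The split of members by coding length was not among the planned comparisons. Coding lengths came from GENCODE vM21, which held 94.1% of the gene IDs, and start regions from RefSeq. A few genes are not reported here. Alternatives changed the cell filters, gates, denominators, depth mix, UMI minimum and fold.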

Additional observations from a re-analysis of the deposited data

Results flagged for a closer look

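The member share changed in opposite directions between genotypes in different classes. The log2 ratio of UEIS KI over UEIS LSL was -0.092 in macrophages, 0.112 in C1q-low myeloid cells and 0.129 in monocytes. With 1 library per genotype this difference was not tested.

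UMIs were also counted under 322 pseudogene symbols of ribosomal proteins, which no comparison used. They came to 63392 in UEIS LSL and 67888 in UEIS KI, or 0.436% and 0.455% of member and pseudogene UMIs together. Whether these UMIs come from pseudogenes or from the parent genes was not tested.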

How the results depend on the processing

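Settings were chosen after seeing the data for the Lyve1/Folr2 gate, the macrophages without it and the monocytes without immunoglobulin-rich cells. No paired analysis was possible because each genotype is 1 library. In all settings tried for the share, 4 classes lay above macrophages in both libraries, and the log2 ratios of the share kept their sign in macrophages, C1q-low cells and monocytes, in that order below. They were -0.094 and 0.108 in macrophages and C1q-low cells with called doublets kept. They were -0.133, 0.130 and 0.122 with cells thinned to 1000 UMIs, -0.135, 0.132 and 0.121 with every cell counting alike, and -0.094, 0.053 and 0.079 with the same mix of depth bins. Without dividing cells the first 2 were -0.098 and 0.092. Stricter gates gave 0.0953 in C1q-low cells and 0.113 in monocytes, and leaving the 20 most abundant other genes out of the denominator gave 0.0890 and 0.112. Macrophages gave -0.018 with the same mix of subsets and -0.040 without the Lyve1/Folr2 gate.

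At 1.5-fold, 0 members were called in these 3 classes, and 0, 8 and 11 list genes were higher and 0, 2 and 1 lower. With the same mix of depth bins, 2 members were higher in C1q-low cells, 3 higher and 0 lower in monocytes, and 10 list genes were higher in C1q-low cells. Relative to the median of all genes, 3 members were higher and 2 lower in C1q-low cells and 5 were higher in monocytes. On that scale 9 list genes were lower in macrophages, 45 higher in C1q-low cells, and 32 higher and 8 lower in monocytes. Thinned, 1 member was lower in C1q-low cells and 1 in monocytes, 7 list genes were higher and 15 lower in macrophages, 1 was lower in C1q-low cells and 18 were higher in monocytes. Stricter gates gave 1 member lower, and 32 list genes higher and 8 lower, in monocytes, and 5 list genes were higher in macrophages with doublets kept. At 2-fold 1 member, Rps27l, was uneven. The shares of all genes under these changed settings are not given.

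The gate's log2 ratio to other macrophages, given for UEIS LSL and then UEIS KI, was -0.53 and -0.43 with doublets kept, -0.76 and -0.72 both thinned and with every cell alike, -0.60 and -0.47 with the same mix of depth bins, -0.72 and -0.65 without dividing cells, -0.83 and -0.79 with 4 markers required and -0.49 and -0.37 under 1% mitochondrial UMIs. It was -0.62 and -0.51 without mitochondrial genes and -0.65 and -0.53 without the 20 genes, and -0.62 in UEIS LSL with stricter gates. Members lower in the gate numbered 4 with doublets kept, 56 thinned, 73 at a log2 limit of 0.32, 0 at 2-fold and 61 with 4 markers. No share of all genes is given beside these counts. The causes of these differences were not tested.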
